A study of Mus musculus with 12 samples.

Results

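The estrogen-related receptors (ERRs), the peroxisome proliferator-activated receptors (PPARs) and their coactivators were examined at the 9 genes that encode them: *Esrra*, *Esrrb*, *Esrrg*, *Ppara*, *Ppard*, *Pparg*, *Ppargc1a*, *Ppargc1b* and *Perm1*. Regions carrying H3K27ac, a histone mark of active promoters and enhancers, were assigned to a gene if they overlapped its body extended by 5 kb on each side in GENCODE M21 (GRCm38). This selected 95 of 53754 regions in control cardiomyocytes (CMs) and 77 of 45521 regions in RIP140-null CMs, at 9 of 21938 protein-coding genes. The marks were profiled by CUT&RUN, in which an antibody directs a nuclease to chromatin and the released DNA is sequenced. Control CMs came from mice with floxed *Nrip1* alleles and no Cre (Nrip1 f/f Cre-). RIP140-null CMs (KO) came from littermates with the same floxed alleles and Cre under the cardiac Nkx2.5 promoter (Nrip1 f/f Cre+, csNrip1-/-) on a C57BL/6J background. Because Nkx2.5-Cre acts in cardiac progenitors, the deletion precedes birth, and the adult profile follows lifelong loss in the heart. Mice were 10 to 12 weeks old, 200000 CMs enriched by low-speed centrifugation entered each experiment, and each genotype had 3 H3K27ac and 3 IgG samples.

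ERRs and PPARs are nuclear receptors that bind DNA at related sequences and drive genes of fatty acid oxidation, the respiratory chain and lipid handling, on which the heart depends for ATP. ERRs act as monomers or dimers without a known natural ligand, whereas PPARs respond to fatty acids and bind as heterodimers with retinoid X receptors. The PGC-1 proteins, encoded by *Ppargc1a* and *Ppargc1b*, dock on these receptors and recruit acetyltransferases, and PERM1 is a muscle protein induced by PGC-1 and ERR that raises oxidative gene expression. RIP140, encoded by *Nrip1*, is a corepressor that binds nuclear receptors through the same kind of motif as coactivators and recruits deacetylases. How the chromatin of the regulators themselves looks when RIP140 is absent was the question put to these lists.

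For each genotype the authors merged the replicates into 1 list of regions found in at least 2 of 3, and no value per replicate was used here. The comparisons below are therefore descriptions of 2 lists, with no replicate error and no test. Regions with at least 1 bp in common with the opposite list are called shared, and the rest control-only or KO-only. Covered length is the number of bp of a gene window under the regions of a list, and the log2 ratio is that of KO over control. The number that ends each region's name, 2 at the least, was read as its number of subpeaks, that is, of replicate-level regions merged into it, although the lists do not define it. As a whole, the KO list had fewer and wider regions, with a median width of 2291 bp against 1846 bp in the control list. Of KO regions 61.0% had 2 subpeaks, against 68.9% of control regions. Depth behind each region is unknown, and Wilson 95% intervals of shares cover counting error only. At *Nrip1*, control regions covered 2904 bp of the 7616-bp last exon (chr16:76287400-76295015), which lies between the loxP sites, and KO regions covered 0 bp.

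The nonamer TCAAGGTCA, bound by ERRs, was searched on both strands of the member windows. It contains AGGTCA, the unit that PPARs read in the direct repeat AGGTCANAGGTCA. Of 11 matches that lay under the regions of 1 list alone, the 8 at *Esrra*, *Esrrb*, *Esrrg*, *Ppara* and *Ppard* are shown because their coverage differed between the lists. The other 3, at *Ppargc1b*, are given by count and not printed, and a tandem upstream of *Esrra* is shown because both lists covered it. Each sequence reads 5′ to 3′ on the strand of the match (GRCm38), with the match in capitals. The *Esrra* match at chr19:6919731-6919759 lies in an exon of a transcript with a retained intron. Those of *Esrrb*, *Esrrg* and *Ppard* are intronic, and that of *Ppara* lies just beyond the end of the gene. Only those at chr12:86439207-86439235, at chr1:187869137-187869165 and at *Ppara* lie in control-only or KO-only regions. The rest lie in shared regions, in a part that the region of the opposite list did not reach. At chr12:86502049-86502077 the match lies just past the end of the control region, in a shared locus of 1218 bp in control and 1290 bp in RIP140-null CMs. In the tandem, which lies between *Esrra* and an annotated transcript of its neighbor *Catsperz*, the second match is to the relaxed form TNAAGGTCA.
*Esrra* chr19:6919731-6919759, minus strand, control regions alone: catcagagatTCAAGGTCAtcattgacta
*Esrrb* chr12:86365580-86365608, plus strand, control regions alone: ttgagtcatgTCAAGGTCAatggaggtca
*Esrrb* chr12:86439207-86439235, plus strand, control regions alone: accttatcatTCAAGGTCAtggctataag
*Esrrb* chr12:86502049-86502077, plus strand, KO regions alone: catccctgctTCAAGGTCAactgaaaagc
*Esrrg* chr1:187869137-187869165, minus strand, control regions alone: tcttttgtcaTCAAGGTCAatttgggagt
*Esrrg* chr1:187936604-187936632, plus strand, control regions alone: ggttgtgactTCAAGGTCAgcctgtgcta
*Ppara* chr15:85802842-85802870, plus strand, KO regions alone: gacgaaatgtTCAAGGTCAgcattatgaa
*Ppard* chr17:28248997-28249025, minus strand, KO regions alone: gacatggagtTCAAGGTCAtccttagctt
*Esrra* tandem chr19:6922327-6922370, plus strand, both lists: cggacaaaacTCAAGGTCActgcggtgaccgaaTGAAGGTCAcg

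At *Esrrg* and *Pparg*, internal start sites were covered by KO regions and not by control regions, and the 250 bp upstream of the first such site of each gene are shown for that reason. Both stretches are intronic with respect to the longer transcripts. Neither held a match to the ERR, PPAR or MEF2 motif, which says only that these letters are not in this window. The capitals mark CCAAT on either strand, a common promoter element, present 2 times in each window. At least 1 CCAAT was present in 32.8% of the 54329 stretches of 250 bp upstream of protein-coding start sites.
*Esrrg* chr1:187997577-187997826, plus strand: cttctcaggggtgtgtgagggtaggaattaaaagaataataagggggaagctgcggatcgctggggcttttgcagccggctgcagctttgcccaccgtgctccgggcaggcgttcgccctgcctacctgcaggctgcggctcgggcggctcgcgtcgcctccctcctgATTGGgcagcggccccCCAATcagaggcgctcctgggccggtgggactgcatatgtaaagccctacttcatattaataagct
*Pparg* chr6:115421816-115422065, plus strand: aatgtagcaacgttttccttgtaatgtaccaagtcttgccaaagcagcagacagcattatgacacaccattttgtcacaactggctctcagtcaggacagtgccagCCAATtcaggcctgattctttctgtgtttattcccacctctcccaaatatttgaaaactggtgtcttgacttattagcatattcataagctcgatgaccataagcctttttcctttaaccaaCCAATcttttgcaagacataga

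All 9 genes carried regions in both lists, but the families differed in how much of their windows was covered. The PPAR genes were covered over a greater length in RIP140-null CMs, 118338 bp against 85994 bp in control CMs (log2 ratio 0.46). The ERR genes were covered over 75232 bp and 81198 bp, respectively (log2 ratio -0.11), but the ratio was 0.01 when regions under 1000 bp were left out. The coactivator genes were covered over 151242 bp and 142850 bp (log2 ratio 0.08). Over all members, 344812 bp were covered in the KO list and 310042 bp in the control list (log2 ratio 0.15). Over the whole lists the log2 ratio of covered length was 0.03. The median log2 ratio was 0.27 over the 9 members and 0.08 over the 12989 protein-coding genes covered in both lists (quartiles -0.20 and 0.39). Covered length was over 1.5-fold longer in RIP140-null CMs at 3 of the 9 members, *Ppara*, *Perm1* and *Ppard*, against 16.3% of all such genes. It was over 1.5-fold shorter at 0 members, against 8.59%, but with no extension of the gene body *Esrra* passed this limit (log2 ratio -0.98). Among all genes, the log2 ratios of *Ppara*, *Perm1* and *Ppard* lay at percentiles 91.7, 90.4 and 86.7, and that of *Esrra*, the lowest member, at percentile 17.1.

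**Figure D1:**
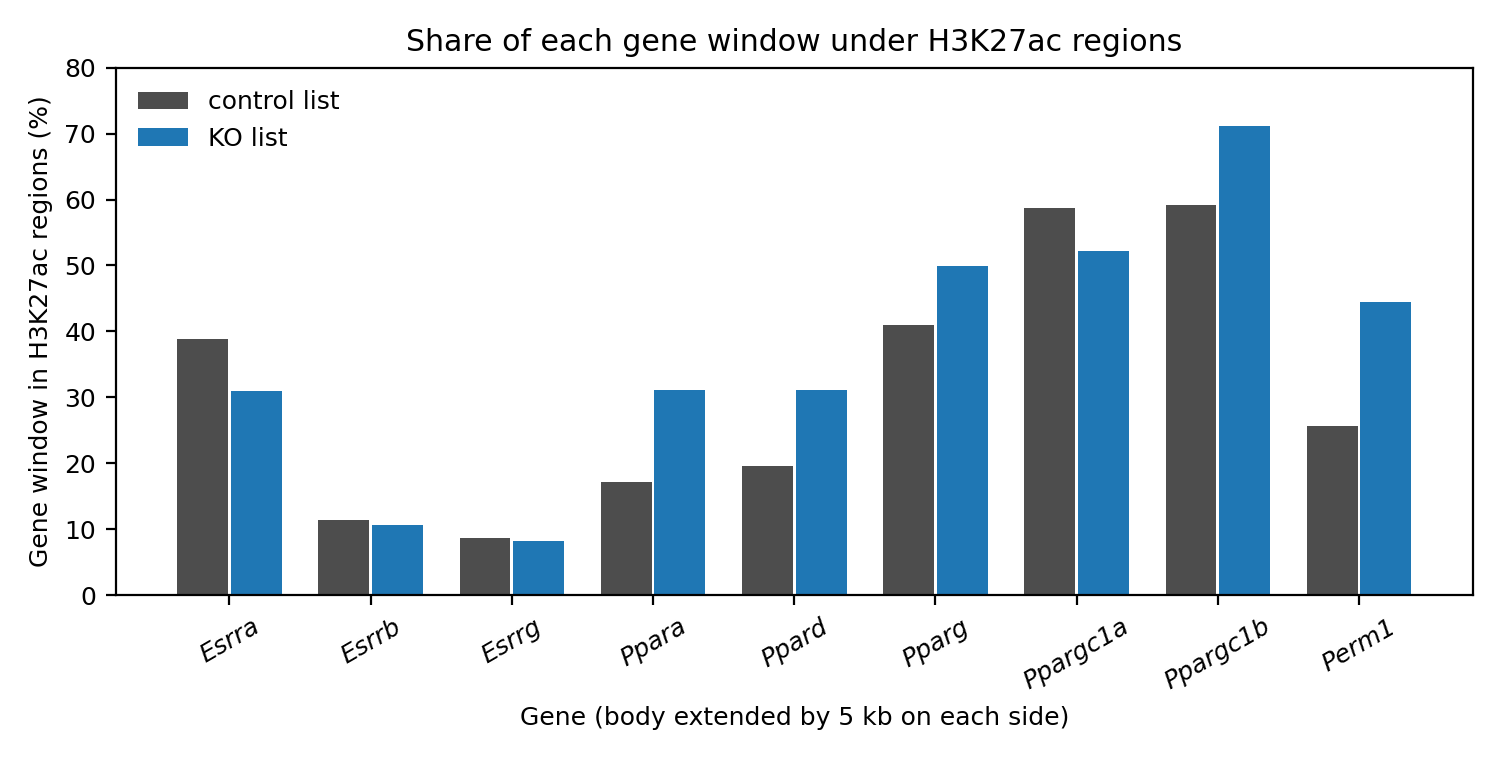
Share of each gene window (gene body extended by 5 kb on each side, in %) under the H3K27ac regions of the control list (grey) and the KO list (blue), 1 merged list per genotype and so no error bars. *Ppara*, *Ppard* and *Perm1* show the widest relative steps, from 17.1% to 31.1%, from 19.6% to 31.1% and from 25.6% to 44.5%, and *Ppargc1a* and *Ppargc1b* the tallest bars.

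**Figure D2:**
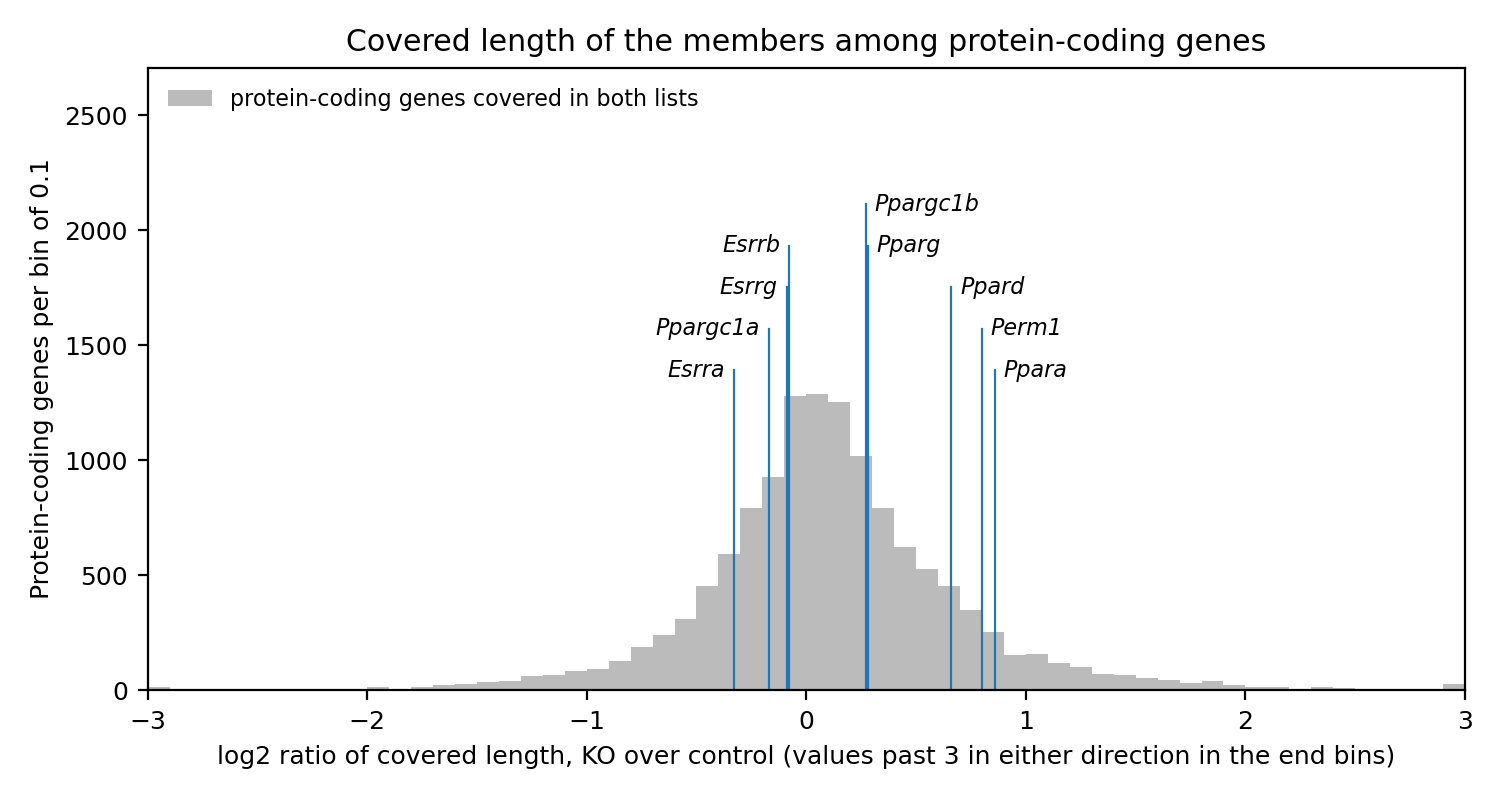
Number of protein-coding genes (y axis) by log2 ratio of covered length, KO over control (x axis, bins of 0.1), with the 9 members as blue lines. *Ppara* (0.86), *Perm1* (0.80) and *Ppard* (0.66) lie above the upper quartile of 0.39, and *Esrra* (-0.33) lies below the lower quartile of -0.20.

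With the 9 members pooled, the shares of regions found in 1 list differed little from those of the lists as a whole. Of the 77 KO regions at the members, 17 (22.1%, interval 14.3% to 32.5%) were KO-only, against 21.5% of all KO regions. Of the 95 control regions, 25 (26.3%, interval 18.5% to 36.0%) were control-only, against 29.5% of all control regions. The families differed: control-only shares were 41.0% at the ERR, 21.9% at the PPAR and 8.33% at the coactivator genes. KO-only shares were 28.1% at the ERR, 22.2% at the PPAR and 11.1% at the coactivator genes. Their intervals, 15.6% to 45.4%, 10.6% to 40.8% and 3.10% to 32.8%, each held the 21.5% of all KO regions. The order of the pooled counts, 17 KO-only and 25 control-only, depended on the setting. Among regions at least 1000 bp wide, 16 were KO-only and 13 control-only, and with equal numbers of regions 19 and 14. At least 1 KO-only region was present at 6 members and at least 1 control-only region at 6, against 35.2% and 39.2% of the 14443 protein-coding genes with any region, but the member windows span 15.4 to 616 kb and the longer ones have room for more regions. Nearly all of these regions had the lowest number of subpeaks: 16 of the 17 KO-only and 24 of the 25 control-only regions had 2, which was also true of 87.8% and 94.3% of all such regions. They were narrow, with median widths of 1072 bp and 1039 bp. By position, 13 of the 17 KO-only and 24 of the 25 control-only regions had their center in an intron. The shared loci differed more in width, but not at every member. Regions of both lists joined where they overlapped gave 51 such loci at the members, of which 16 (31.4%) were over 1.5-fold wider in RIP140-null CMs and 3 (5.88%) over 1.5-fold narrower. Among all 32649 shared loci the figures were 17.3% and 10.3%. The median log2 ratio was 0.30 at the members and 0.08 over all shared loci.

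The ERR genes were read first. *Esrra* (ENSMUSG00000024955, chr19:6910977-6921813, minus strand) encodes ERRα, which is abundant in heart and is itself induced by PGC-1α. It carried 2 regions in each list, both shared. The region over its start sites measured 5916 bp in control and 4407 bp in RIP140-null CMs, and the smaller region downstream of the gene 2167 bp and 2023 bp, respectively. The difference at the start lay mostly inside the gene, where the control region reached further into the transcribed part and took in the exonic ERR match shown above. The ERR tandem, at positions -532 and -555 bp from the first start site, was covered in both lists. The window also holds start sites of *Catsperz*, *Prdx5* and *Trmt112*, so its regions cannot be ascribed to *Esrra* alone. In the gene body without extension the log2 ratio of *Esrra* was -0.98, and with 20 kb on each side it was -0.03.

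*Esrrb* (ENSMUSG00000021255, chr12:86361117-86521628, plus strand) encodes ERRβ, best known from stem cells and the inner ear. It was sparsely covered, over 11.4% of its window in control and 10.7% in RIP140-null CMs. The region over its first start site was the widest of the gene in each list and measured 8469 bp in control but 4103 bp in RIP140-null CMs, 1 of the 3 member loci over 1.5-fold narrower. An intronic locus 37 kb downstream went the other way, from 640 bp to 2155 bp, as did a further one, from 1299 bp to 2047 bp. Of the 7 shared loci of *Esrrb*, 2 were over 1.5-fold wider and 1 narrower in RIP140-null CMs, with a median log2 ratio of 0.30. Of its 10 control and 9 KO regions, 3 were control-only and 2 KO-only, all in introns. The start sites near the middle of the gene were covered in both lists, by regions of 1187 bp and 1259 bp, and a further internal start site at 86470117 was covered in neither.

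*Esrrg* (ENSMUSG00000026610, chr1:187608791-188214885, plus strand) encodes ERRγ, which is induced in heart muscle around birth and maintains oxidative metabolism. Its window of 616 kb held more regions than that of any other member, 27 in control and 21 in RIP140-null CMs. Only 8.72% and 8.20% of the window was covered. In number, *Esrrg* had the most regions found in 1 list, 13 of 27 control and 7 of 21 KO regions, in the longest window. Over all regions, 29.5% of control regions were control-only and 21.5% of KO regions KO-only. By share, *Ppara* had more KO-only regions, 3 of 8. The first promoter was shared, with 2653 bp in control and 3265 bp in RIP140-null CMs. The KO-only region at the internal promoter (chr1:187997228-187998695, 1468 bp, 2 subpeaks) covered start sites at 187997827 and 187997868, 389 kb into the gene, and the nearest control region was 11866 bp away from it. Of 14 shared loci, 3 were wider and 1 narrower in RIP140-null CMs. The widest relative step among them was from 938 bp to 3004 bp, 53.4 kb from the start, and the narrowed locus, from 5311 bp to 3159 bp, was the one holding the ERR match at 187936614. The log2 ratios of *Esrrb* and *Esrrg* were -0.08 and -0.09, and both turned positive, to 0.05 and 0.04, among regions at least 1000 bp wide.

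**Figure D3:**
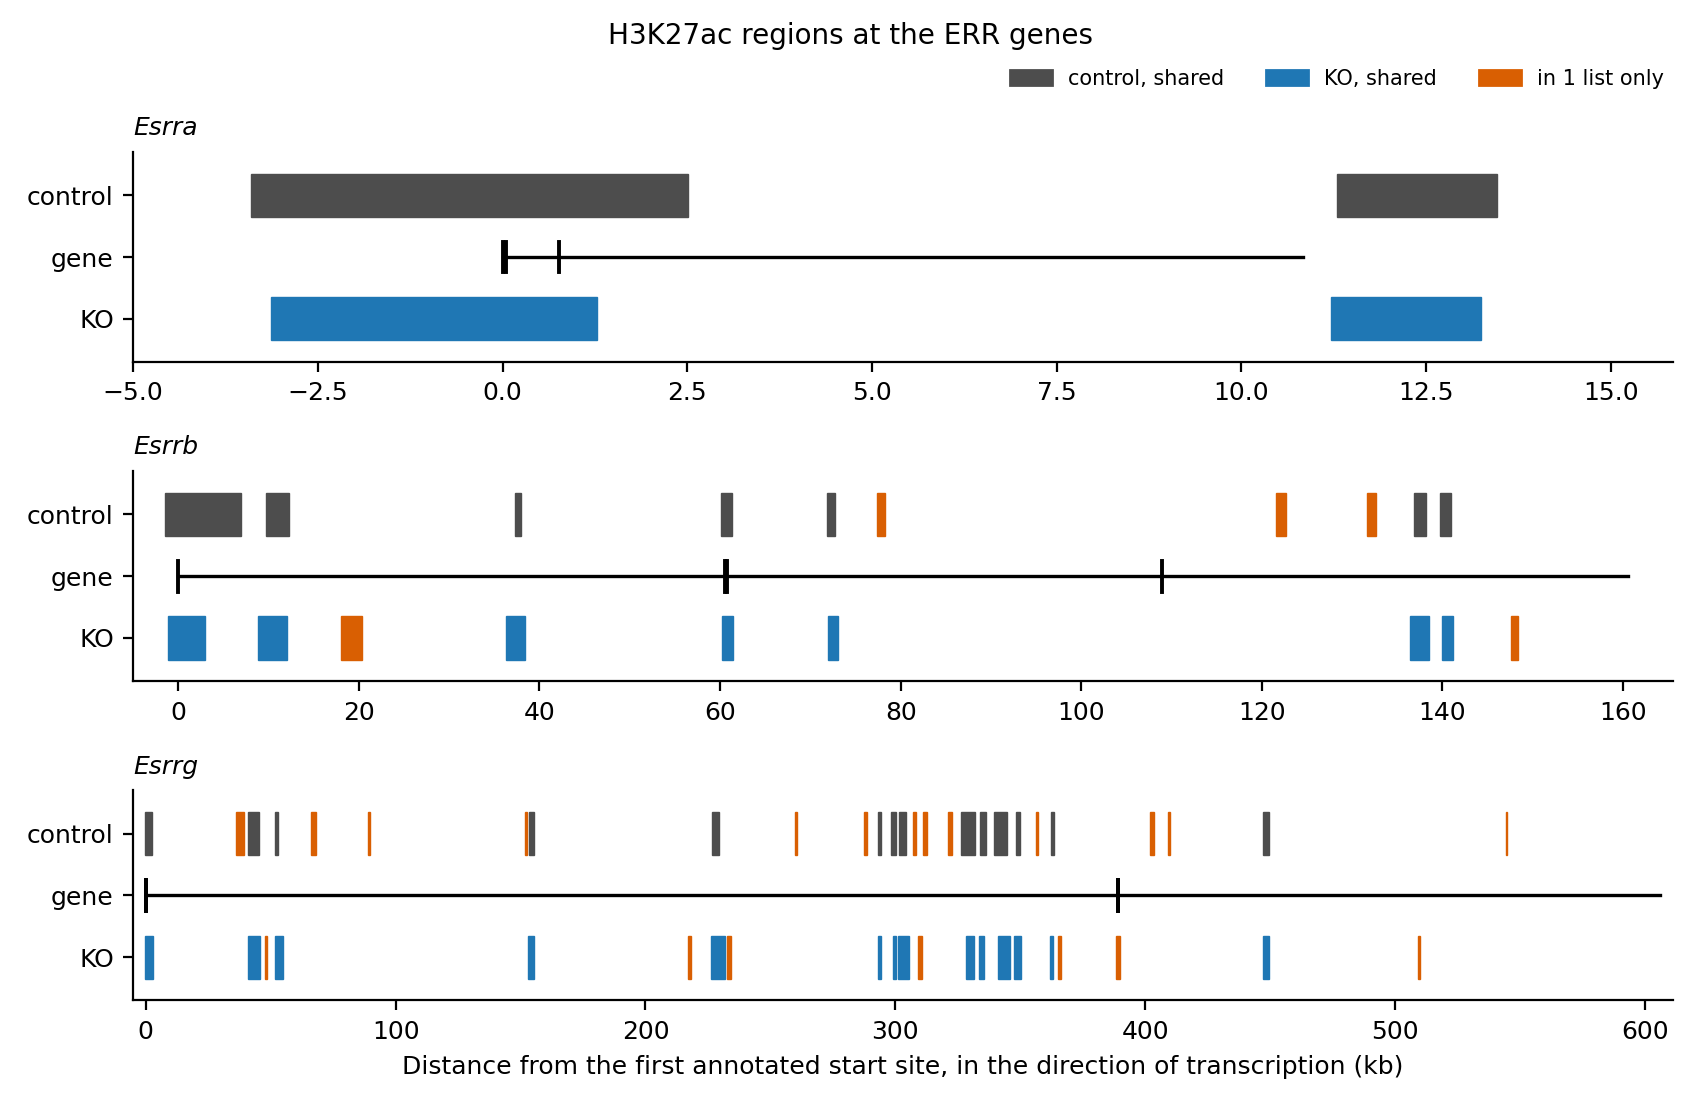
H3K27ac regions at the ERR genes by distance from the first annotated start site (x axis, kb, in the direction of transcription), with control regions above and KO regions below each gene line. Ticks mark protein-coding start sites and orange marks regions in 1 list only, drawn with a thin outline. At *Esrrg*, 13 control and 7 KO regions are orange, and 1 of the latter sits on the internal start sites at 389 kb.

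The PPAR genes were covered over a greater length in RIP140-null CMs at each of the 3 genes and under each of the settings tried. *Ppara* (ENSMUSG00000022383, chr15:85734983-85802819, plus strand) encodes PPARα, the main fatty acid sensor of the heart. It had the highest log2 ratio of the members, 0.86, with 24196 bp covered in the KO list and 13289 bp in the control list. At the promoter, regions of 1873 bp and 4390 bp in control CMs were bridged by a single KO region of 10597 bp that reached further into the first intron (chr15:85731013-85741609, 4 subpeaks). There were 3 KO-only regions, of 1276, 3115 and 1072 bp, and 2 control-only regions, of 709 and 754 bp. The last KO-only region spans the end of the gene (chr15:85802662-85803733) and holds the ERR match shown above, 67.9 kb downstream of the first start site. Part of the covered length, 1259 bp, came from a region that crosses the downstream edge of the window and belongs to a locus found in both lists. When regions were assigned by their nearest start site, the log2 ratio of *Ppara* was 0.57, under the 1.5-fold limit.

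*Ppard* (ENSMUSG00000002250, chr17:28232700-28301474, plus strand) encodes PPARδ, which is broadly expressed and also controls fatty acid oxidation in muscle. Each list had 7 regions, with 1 control-only and 1 KO-only, yet the covered length was 24520 bp in the KO list and 15472 bp in the control list (log2 ratio 0.66). The difference lay in shared loci. In the first introns, a control region of 2818 bp was met by a pair of KO regions that together measured 7283 bp, and a region 47.3 kb from the start was 2512 bp wide in the KO list and 818 bp in the control list. The locus of the internal promoter measured 2652 bp and 1747 bp, respectively, and that of the first promoter 5107 bp and 4377 bp. The ERR match of *Ppard* lay in the part of an intronic KO region of 5916 bp that extended past the end of its control counterpart of 4673 bp.

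*Pparg* (ENSMUSG00000000440, chr6:115360951-115490399, plus strand) encodes PPARγ, known best for its role in adipocytes, where a downstream promoter makes the form PPARγ2. It was covered over 69622 bp in the KO list and 57233 bp in the control list (log2 ratio 0.28), in fewer regions, 12 against 18. Fewer and wider regions were also a feature of the KO list as a whole. Region boundaries differed between the lists in both directions. In the locus around the downstream start site, 5 control regions totaling 9903 bp corresponded to 2 KO regions totaling 16417 bp, whereas at chr6:115374555-115384628 a control region of 9427 bp corresponded to 2 KO regions totaling 9217 bp. The start site at 115422066 (transcript ENSMUST00000000450) fell in a gap between control regions that ended at 115421786 and began at 115422474, whereas a KO region of 12025 bp with 4 subpeaks ran across it (chr6:115415723-115427747). The nearest control region was 280 bp from this start site. An intronic locus closer to the first promoter had 10874 bp in the KO list and 5229 bp in the control list. At the first promoter itself the locus measured 9097 bp and 9190 bp.

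Because PPARγ is an adipocyte gene and the CM fraction was enriched by centrifugation, markers of other cells were read beside it. The 4 adipocyte marker genes carried little, a summed 2271 bp in the KO list and 4523 bp in the control list. This sum depends on *Fabp4*, a gene of adipocytes and of capillary endothelium, being listed with the endothelial markers: it was covered over 7565 bp and 9355 bp, respectively. *Plin1* was the most covered (log2 ratio -0.45), *Cidec* had the lowest ratio (-1.58, from 291 bp in control CMs), *Adipoq* had regions in the control list alone, and *Lep* had none. All 5 endothelial markers were covered in both lists, over 73698 bp in the KO list and 67359 bp in the control list. *Pecam1* was the most covered in bp and *Fabp4* by share of the window. Individual endothelial markers spread widely, from a log2 ratio of 0.32 at *Pecam1* to -1.54 at *Cdh5*, with a median of -0.31 and 2 over 1.5-fold shorter, *Cdh5* and *Tie1* (-0.60). Of 5 fibroblast markers, *Col1a2*, *Dcn* and *Tcf21* had no region, and the summed length was 834 bp for KO and 1560 bp for control. In bp, *Pdgfra* was the most covered in control and *Col1a1* in RIP140-null CMs. Of 5 macrophage markers, *Cd68* alone had regions, 4128 bp for KO and 1173 bp for control, and *Ptprc*, *Csf1r*, *Adgre1* and *Lyz2* had none. The 8 CM markers were all covered in both lists, with the most bp at *Actn2* and the highest share of the window at *Tnni3*. Their summed length was 148106 bp for KO and 120891 bp for control (log2 ratio of the sums 0.29, median of the genes 0.14). Among them, *Actn2* had the highest log2 ratio (0.66) and *Myh6* the lowest (-0.25). The part of these markers in the result at *Pparg* was not tested.

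**Figure D4:**
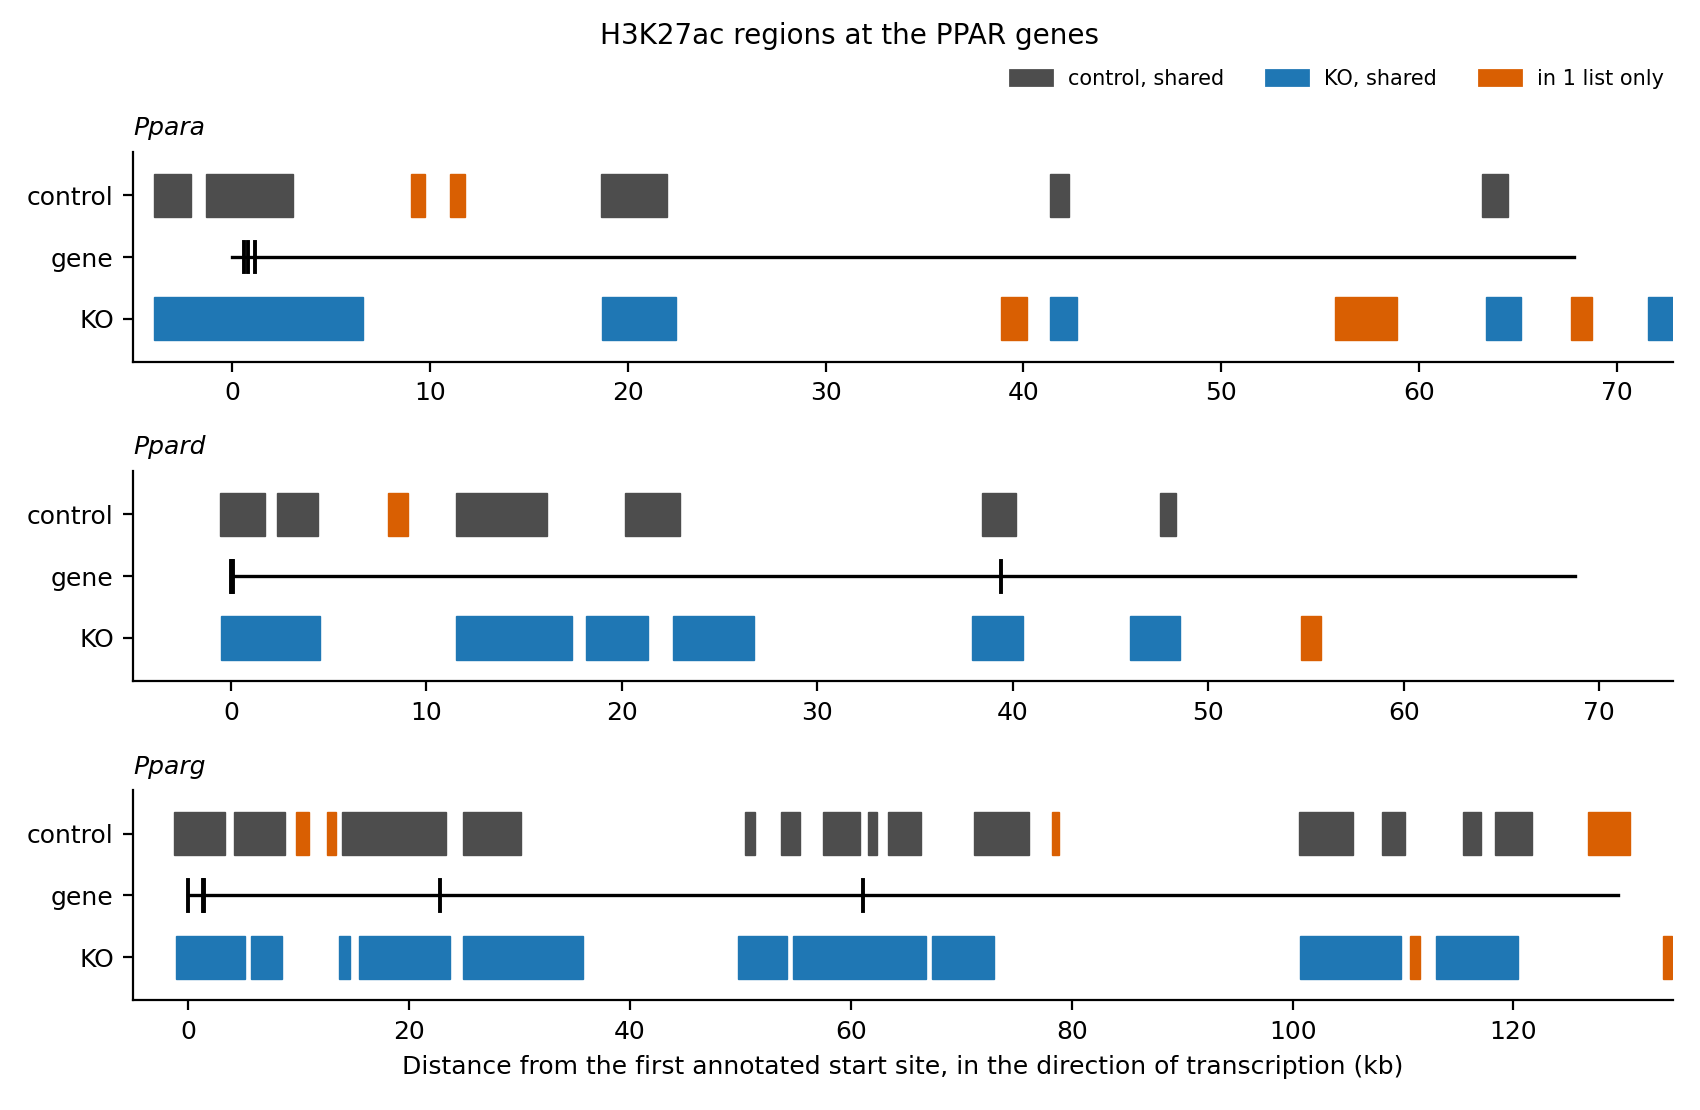
H3K27ac regions at the PPAR genes by distance from the first annotated start site (x axis, kb), drawn as for the ERR genes. At *Ppara*, 2 control regions stand opposite 1 KO region of 10597 bp at the promoter, and at *Pparg* a KO region of 12025 bp crosses the internal start site that falls between control regions.

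Summed over their windows, the coactivator genes were covered more densely than the ERR or PPAR genes, over 56.9% in control and 60.2% in RIP140-null CMs. This holds for *Ppargc1a* and *Ppargc1b* and not for *Perm1*, which was covered less than *Pparg* in both lists. *Ppargc1a* (ENSMUSG00000029167, chr5:51454250-51567726, minus strand) encodes PGC-1α, the inducible coactivator of mitochondrial biogenesis, and is transcribed from a proximal and an upstream alternative promoter. It was covered over 58.7% of its window in control and 52.2% in RIP140-null CMs, at percentiles 97.2 and 94.3 of all genes. Most of this lay in 1 shared locus over the 5′ part of the gene, where 6 control regions covered 61602 bp and 5 KO regions 58319 bp. Both promoters were covered in both lists. The region over the upstream promoter measured 5449 bp in control and 11619 bp in RIP140-null CMs, and that over the proximal promoter 21123 bp and 18247 bp. Toward the other end of the gene, 2 control-only regions lay in introns, there was no KO-only region, and the locus at the 3′ end measured 6462 bp in control but 2184 bp in RIP140-null CMs. An intronic locus 90 kb from the start was wider in RIP140-null CMs, 5428 bp against 2299 bp. The log2 ratio was -0.17, and it was negative under each of the settings tried.

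*Ppargc1b* (ENSMUSG00000033871, chr18:61298136-61400431, minus strand) encodes PGC-1β, which overlaps PGC-1α in function. It was the most covered member in RIP140-null CMs, over 71.1% of its window against 59.1% in control CMs (log2 ratio 0.27). The widest region of any member was here, an intronic KO region of 24834 bp with 12 subpeaks, opposite control regions of 12243, 4687 and 5208 bp. All 11 control regions were shared, and 2 of the 10 KO regions were KO-only. None of its 7 shared loci passed 1.5-fold in either direction, with a median log2 ratio of 0.11.

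*Perm1* (ENSMUSG00000078486, chr4:156215868-156221307, plus strand) encodes the muscle coregulator named for its induction by PGC-1 and ERR. Control CMs had a region of 2868 bp over the start and another of 1080 bp centered in a coding exon. In RIP140-null CMs, a single region of 6872 bp with 5 subpeaks ran from upstream of the start to beyond the end of the gene (chr4:156214996-156221867). The covered share of the window was 44.5% in RIP140-null and 25.6% in control CMs (log2 ratio 0.80). With 20 kb on each side of the gene the log2 ratio was 0.15.

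**Figure D5:**
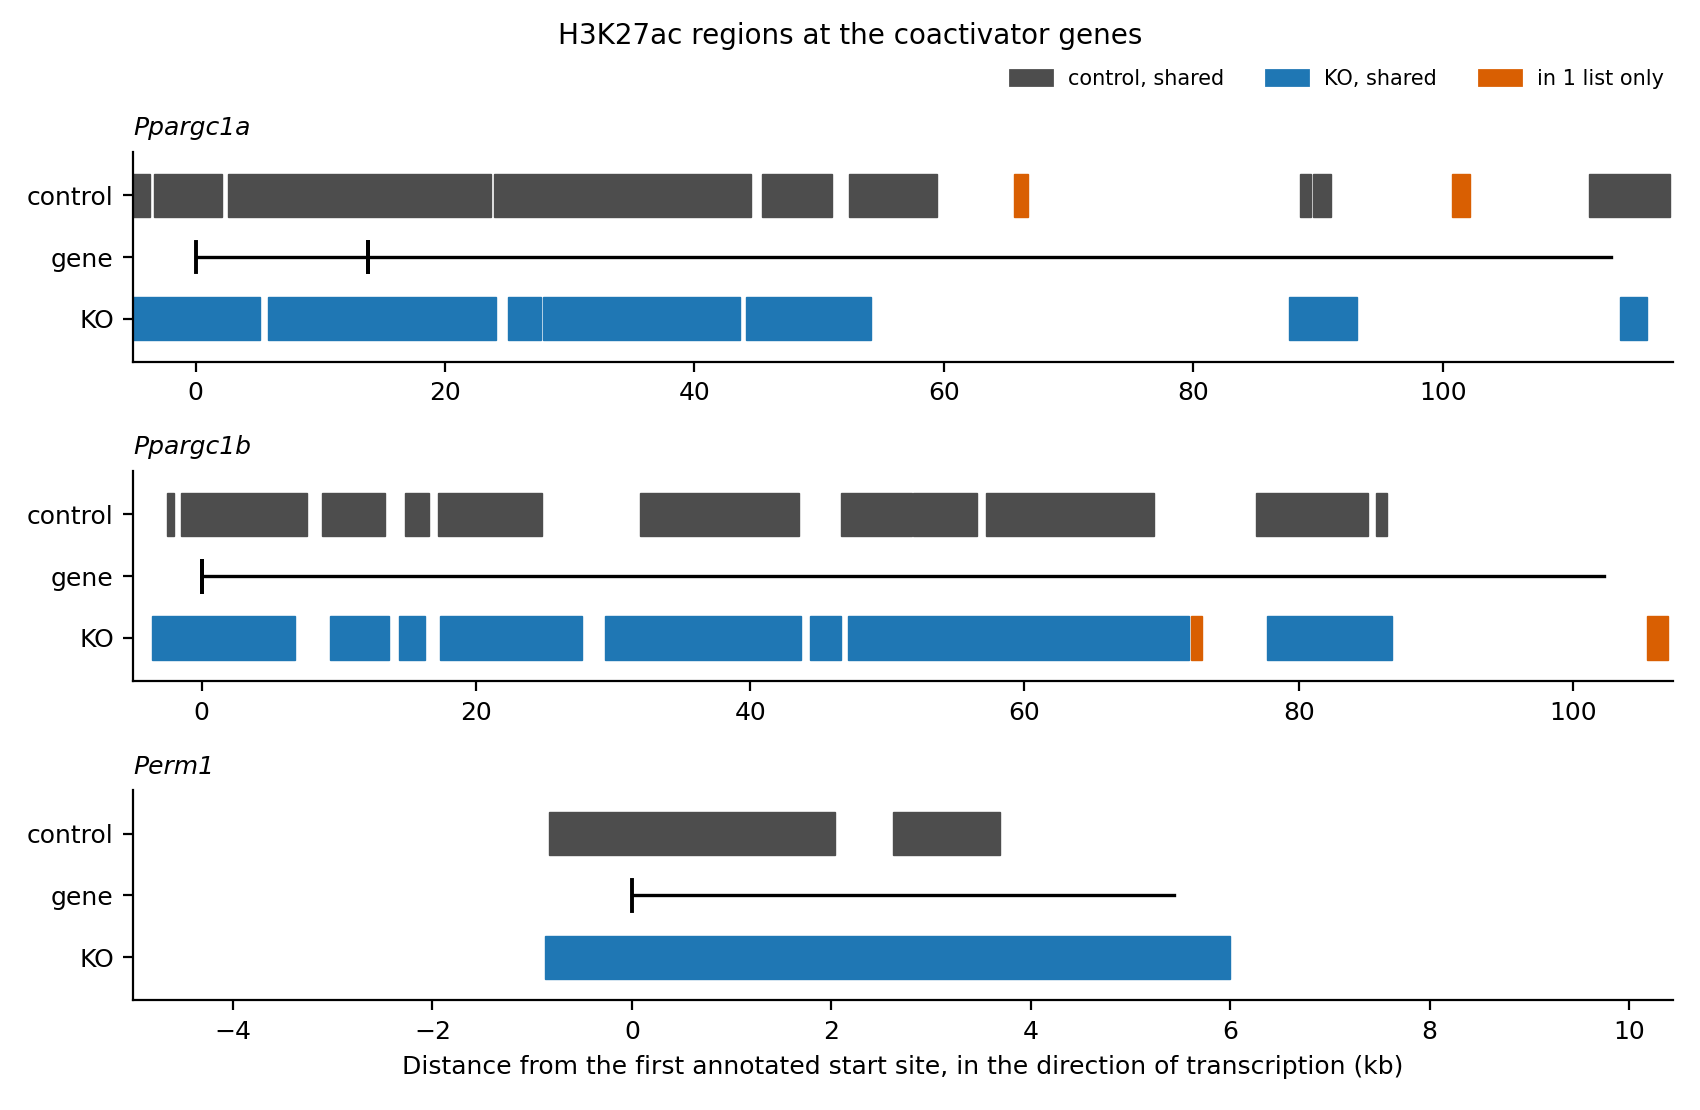
H3K27ac regions at the coactivator genes by distance from the first annotated start site (x axis, kb), drawn as for the ERR genes. Dense coverage of *Ppargc1a* and *Ppargc1b* is present in both lists, and at *Perm1* 1 KO region of 6872 bp stands opposite control regions of 2868 and 1080 bp.

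Promoters of the members were largely active in both genotypes by this mark. Of 29 annotated start sites of protein-coding transcripts, 25 were covered in both lists, 3 in RIP140-null CMs alone, 0 in control CMs alone and 1 in neither. The 3 sites, 2 of them under the same *Esrrg* region and 1 at *Pparg*, make up 10.7% of the 28 covered in either list, against 11.9% of the 28062 such sites of all protein-coding genes. Sites covered in control CMs alone made up 5.09% of all. The share of start sites covered in RIP140-null CMs alone was thus close to that of all genes.

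ERR motif matches were present in covered sequence of 8 members, all but *Perm1*. The member windows held 56 matches, of which 12 were covered in both lists, 6 in control CMs alone, 5 in RIP140-null CMs alone and 33 in neither. Per Mb of covered sequence, there were 58.1 matches at the members in control and 49.3 in RIP140-null CMs, from 18 and 17 matches, against 32.7 and 33.6 over all regions. At the PPAR genes, the 2 matches covered in both lists were at *Pparg*, and *Ppara* and *Ppard* each had 1 match covered in RIP140-null CMs alone, with their other 3 matches in no region. *Esrrg* had 4 matches covered in both lists and 2 in control CMs alone, and *Ppargc1b* had 3 in both, 2 in RIP140-null CMs alone and 1 in control CMs alone. In the central 200 bp of regions, a match was present in 2 of 95 control regions (2.11%) and 1 of 77 KO regions (1.30%), against 0.657% and 0.674% of all regions, counts too small to compare. In the 250 bp upstream of start sites, 0 member promoters held a match, against 0.359% of all. A match is a string of letters and not evidence of binding.

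No match to the PPAR repeat lay entirely within a region of the members. Of 6 matches in the windows, 2 were at *Esrrb* and 4 at *Esrrg*, and 1 of the latter crossed the end of a KO-only region. It is rare everywhere, at 2.09 and 2.24 matches per Mb over all control and KO regions and in 0.0258% of promoters. The binding motif of MEF2, a cardiogenic factor that acts with PGC-1α, had 14 covered matches in control and 12 in RIP140-null CMs, 10 of them in both. This was 45.2 and 34.8 per Mb, against 37.9 and 36.1 over all regions. *Ppargc1a* alone held 4 of the 10, at 1.05, 4.48, 21.3 and 38.1 kb from its first start site. The MEF2 match at *Esrrg* upstream of the second annotated start site was the only one in the 250 bp upstream of a member start site, against 0.431% of all such stretches.

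The partners and cofactors listed for these receptors include the retinoid X receptors, the steroid receptor coactivators and *Nrip1*. They had a lower summed ratio than the PPAR genes (0.46) and the coactivator genes (0.08), and a higher one than the ERR genes (-0.11). Their summed covered length was 315219 bp in the KO list and 308728 bp in the control list (log2 ratio 0.03). Of 16 genes, 15 were covered in both lists, with a median log2 ratio of -0.14, which is the value of *Nrip1* itself. Covered length was over 1.5-fold longer at 0 and shorter at 1, *Nrf1*, a regulator of respiratory genes (-0.65). *Med1*, which links receptors to RNA polymerase II, had the highest value (0.35). *Tfam*, the mitochondrial transcription factor, had a region of 2982 bp in RIP140-null CMs alone. *Nrip1* was covered over 57.0% of its window in control and 51.6% in RIP140-null CMs, and this includes the 2904 bp of control coverage in the last exon that is deleted in RIP140-null CMs. *Rxra*, the main cardiac partner of PPARs, was covered over 46.6% and 50.7%.

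Target genes of PPARs or ERRs in heart had a median log2 ratio of -0.02 over the 19 of 20 covered in both lists. Covered length was over 1.5-fold longer at *Fabp3*, the fatty acid carrier of heart muscle (0.89), and over 1.5-fold shorter at *Cycs*, which encodes cytochrome c (-0.68). Between these ends, *Pdk4* (0.52) lay above the upper quartile of all genes, and *Ckmt2* (-0.44) and *Acadl* (-0.33) below the lower. These 3 were chosen after their values were seen.

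The 6 receptors had a median log2 ratio of 0.10, close to the 0.12 of the 30 other nuclear receptor genes covered in both lists. This median lies between ERR and PPAR genes that went opposite ways in the main setting, although *Esrrb* and *Esrrg* turned sign among regions at least 1000 bp wide. By summed length the log2 ratio was 0.21 for the 6 receptors and 0.03 for the 43 other genes listed. Among the 30, covered length was over 1.5-fold longer at 1, *Vdr* (0.76), against 2 of the 6 receptors. It was over 1.5-fold shorter at 2, *Esr2*, the lowest (-0.86), and *Rarg* (-0.63), against 0 of the 6. Of the 43, *Nr0b1*, *Nr1h4*, *Nr1h5*, *Hnf4g*, *Nr2e1* and *Pgr* had no region, and 7 others had regions in 1 list. KO-only regions made up 25.4% of the KO regions of the 6 receptors and 19.8% of those of the other nuclear receptor genes. Control-only regions made up 32.4% and 32.5% of control regions, respectively.

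By the share of the window covered in the 2 lists, the genes most like *Ppara* were *Yjefn3*, *Arsa* and *Znhit2*, at distances of 0.24, 0.45 and 0.58 percentage points. Those most like *Esrra* were *Rpl28*, *Ptp4a1* and *Prox1*, at 0.43, 0.48 and 0.60 percentage points. With only 2 lists, such distances rank genes by coverage and say nothing of shared control.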

How the data were processed

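The mark H3K27ac was profiled by CUT&RUN, with IgG as background, in Nrip1 f/f Cre- and Nrip1 f/f Cre+ CMs. Per the authors, Bowtie2 2.4.2 placed the reads on GRCm38, SAMtools took out duplicates, and HOMER 4.11.1 called regions in each replicate over IgG and merged them. The deposited lists give the start and end of each region in bp, a name ending in the number of subpeaks, and a score equal for every region, which was not used. Such merging can join or split neighboring regions and so moves both counts and widths. The authors' differential comparison of pooled tag counts could not be repeated from these lists. On sequences other than the autosomes, X and Y, 21 regions of control and 14 of KO were left out. Genes were taken from GENCODE M21, and sequences from the RefSeq GRCm38 assembly. Named genes were the 9 members, neighbors with a start site in a member window and, of each gene list, those with the highest and lowest log2 ratio and most of those with no region. Further genes named from these lists were chosen after their values were seen, as was the search for CCAAT. The members and lists were chosen with earlier results of these data known. Groups came from the labels, and no test was run because each genotype has 1 merged list. The alternatives varied the overlap required for sharing, the gene window, the regions kept, the fold limit and the motif window. The interval code and motif search were tested on simulated data. Python 3.11.15, numpy 2.4.6, scipy 1.17.1, pysam 0.24.0 and matplotlib 3.10.9 were used.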

Additional observations from a re-analysis of the deposited data

How the results depend on the processing

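No paired analysis was possible because the region lists used here hold the merged replicates of each genotype, and for the same reason no replicate could be left out. Of 29 alternatives, 17 stayed within 1.5 times of the main count or at the main ratio, 12 moved, and the ratio over all members kept its sign. The 17 KO-only regions became 28 when an overlap of 50% of the region's own length was required and 39 with a reciprocal 50%. The 25 control-only regions became 58 with a reciprocal 50%, 13 among regions at least 1000 bp wide and 14 when both lists were held to the same number of regions, which removed control regions only. Under the latter 2 settings KO-only regions were the more numerous, at 16 and 19. The log2 ratio of the members' covered length, 0.15, was 0.18 with 20 kb on each side, 0.21 by nearest start site, 0.22 among regions at least 1000 bp wide and 0.22 with equal numbers of regions. The 3 members past 1.5-fold became 0 at a 2-fold limit, and with 20 kb on each side 2 of them were left, *Ppara* and *Ppard*. By nearest start site *Ppara* fell under the limit, at 0.57. With no extension *Esrra* was added as shorter. KO regions with a central ERR match numbered 1, and became 2 in the central 500 bp and 2 with the relaxed motif. Among regions at least 1000 bp wide, the log2 ratios of the ERR genes, *Esrrb* and *Esrrg* turned from -0.11, -0.08 and -0.09 to 0.01, 0.05 and 0.04, and with equal numbers of regions to 0.00, 0.04 and 0.03. The cause of these shifts was not tested. With no signal per region, a locus whose acetylation differed in height but not in extent could not be seen.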
